A study of Mus musculus with 6 samples.

Results

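NF-κB is a family of dimeric transcription factors, and its 5 subunits and 5 of its inhibitors of the IκB family were examined here in N9 microglia. The 10 genes were taken by symbol from the 54532 genes of the count table, as the subunit genes Nfkb1, Nfkb2, Rel, Rela and Relb and the inhibitor genes Nfkbia, Nfkbib, Nfkbie, Nfkbiz and Bcl3, and all 10 were found. N9 is an immortalized microglial line from mouse brain, grown in RPMI medium with fetal bovine serum, penicillin and streptomycin. RNA-seq was performed on 3 libraries of cells given lipopolysaccharide (LPS), the endotoxin of gram-negative bacteria, at 1 µg/ml for 6 h, and on 3 libraries of untreated control cells. The labels give no genetic change in either group and do not say whether replicates were separate cultures, so p-values measure the spread between these samples, which may be technical.

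In resting cells, dimers of NF-κB subunits are held in the cytoplasm by the inhibitors IκBα, IκBβ and IκBε, the products of Nfkbia, Nfkbib and Nfkbie. When LPS engages its Toll-like receptor, the IκB kinase (IKK) complex phosphorylates these inhibitors, which are then degraded, and the dimers enter the nucleus and bind κB sites in promoters and enhancers. Several genes of the system are themselves classical targets of NF-κB, IκBα being the best known, and the resulting feedback limits the response. Bcl3 and Nfkbiz encode atypical, nuclear IκB proteins that bind NF-κB dimers on DNA and can act as co-regulators. The libraries measure RNA only, and each averages over all cells of a sample, so that a change in the share of cells with a transcript and a change in its amount per cell cannot be told apart.

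The libraries held between 16363767 and 17956772 counts. Within a group, each pair of libraries differed by more than sampling noise, with a chi-square statistic per gene from 3.56 to 7.74. Of 18 markers of microglia and macrophages, 13 had over 3 counts in every library, and the normalized count summed over the list (CPM, counts scaled to a common library size) was 2170 to 2240 in the control libraries and 2410 to 2470 in the LPS libraries. Several markers that define microglia in brain were nearly absent in the cell line, with P2ry12 at 3 to 6 counts and Sall1 and Siglech at or under 3 counts in each library. Of 6 markers each, 2 of astrocytes (Gja1 and Aldh1l1), 3 of neurons (Map2, Tubb3 and Slc17a7) and 1 of oligodendrocytes (Mbp) had over 3 counts in every library, with summed levels of 96.0 to 98.7, 27.3 to 28.2 and 33.5 to 40.0 CPM in control and 96.0 to 105, 28.4 to 32.6 and 28.3 to 29.5 CPM in LPS libraries, and the part of these differences in the results was not tested. Among the astrocyte genes Gja1 was higher (log2 fold change 0.18, edgeR adjusted p = 0.00989) and Aldh1l1 lower (-0.29, adjusted p = 0.0129), and Mbp was lower (-0.34, adjusted p = 0.00284). Of the neuron genes, Tubb3 was higher, from 4.06 ± 0.615 to 13.0 ± 1.77 CPM (SD, n = 3 each, log2 fold change 1.67, edgeR adjusted p = 7.27e-07), Map2 was lower (-0.41, adjusted p = 0.00221), and Slc17a7 held 4 to 17 counts. Gfap held 1, 2 and 3 counts in the control and 10, 6 and 0 in the LPS replicates, and Olig2 and Sox10 were at 0 in all 6 libraries. Of 15 hepatocyte markers found by symbol, Ass1, which many cell types express, was the only gene to pass the filter and was higher with LPS (log2 fold change 0.64, edgeR adjusted p = 1.2e-06). The other 14 together held 3, 144 and 210 counts in control replicates 1, 2 and 3, against 8, 5 and 18 in the LPS replicates. Without control replicates 2 and 3, all 10 genes kept their direction and an adjusted p under 0.05, and the control group was then a single library assumed to vary like the LPS libraries. That fit called 2832 genes in all, against 4221 with all libraries.

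All 10 genes were higher in LPS-stimulated than in control N9 microglia in edgeR's quasi-likelihood test (Benjamini-Hochberg adjusted p under 0.05), and for all 10 every LPS library lay above every control library. Of the 12296 genes that passed the filter on low counts and were tested, 18.7% were called higher and 34.3% in either direction, for 23.7% every LPS library lay above every control library, and for 45.3% the groups did not overlap in either direction. The called genes split into 2294 higher and 1927 lower after normalization by the trimmed mean of M-values (TMM), and into 1520 higher and 3342 lower when libraries were scaled by their totals instead. The median log2 fold change was 1.24 over the 10 genes and 0.0036 over all tested genes. The sizes differed widely, from 1.16-fold for Rela to 12.1-fold for Nfkbiz. At an absolute log2 fold change over 1.5 as well as the adjusted p, the thresholds at which a gene is called a differentially expressed gene (DEG) here, Nfkbia and Nfkbiz were DEG, 2 of 10. Of all tested genes, 2.65% were DEG, and 2.4% were up-regulated DEG. An exact permutation test (two-sided) of a single gene cannot give less than p = 0.1 at this number of libraries.

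**Figure D1:**
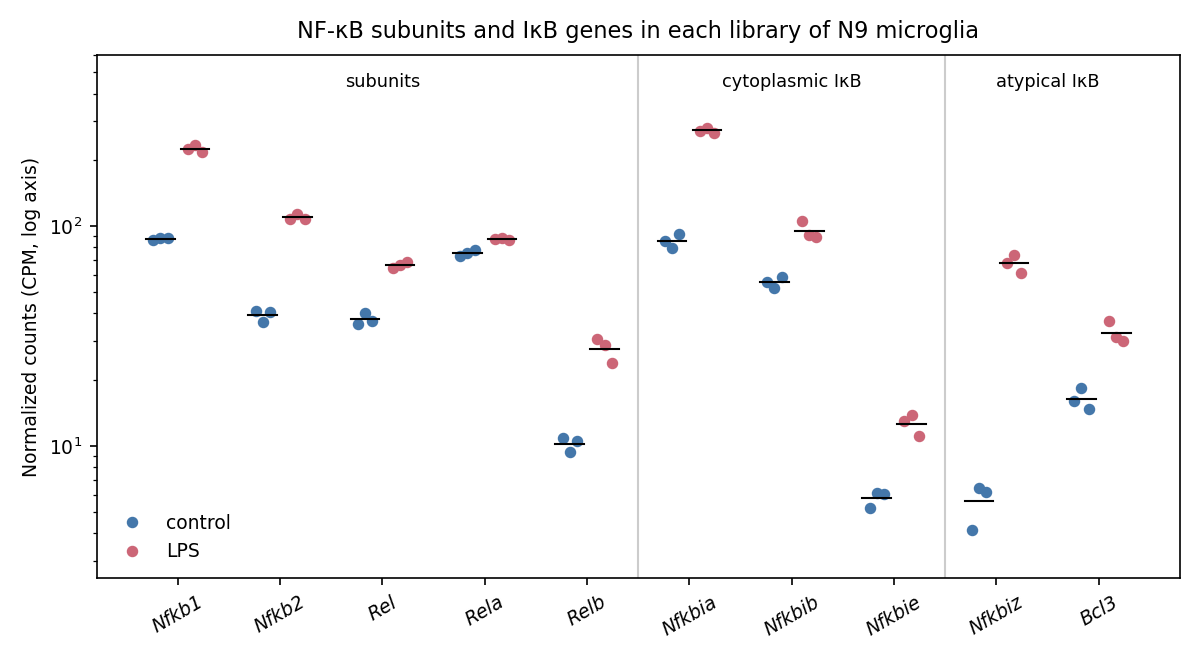
Normalized counts of the 10 genes in each library, in CPM on a log axis, with a point for each of the 3 control and 3 LPS libraries and a bar at the group mean. For every gene the LPS points lie above the control points, narrowly for Rela and by the widest margin for Nfkbiz.

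Transcripts of the 2 subunits that are made as long precursors rose by similar factors. Nfkb1 (ENSMUSG00000028163, chr3:135584655-135691547 on mm10, minus strand) encodes a precursor that is processed to a DNA-binding subunit without an activation domain of its own. Nfkb1 was at 86.7, 88.4 and 87.8 CPM in control replicates 1, 2 and 3 and at 224, 233 and 218 CPM in LPS replicates 1, 2 and 3. The control libraries lay within a narrow range, far below the LPS libraries. The level went from 87.7 ± 0.856 to 225 ± 7.35 CPM (SD, n = 3 each), a log2 fold change of 1.36 (SE 0.05, edgeR adjusted p = 5.03e-12).

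Nfkb2 (ENSMUSG00000025225, chr19:46304737-46312090, plus strand) encodes the other precursor, whose unprocessed form also acts as an inhibitor and which is the centre of the non-canonical pathway. Its level was 41.0, 36.5 and 40.6 CPM in the control replicates and 108, 113 and 108 CPM in the LPS replicates. No library of either group came near the other group. The means were 39.4 ± 2.47 and 110 ± 2.78 CPM (SD, n = 3 each), and the log2 fold change was 1.48 (SE 0.06, edgeR adjusted p = 2.15e-11), just under the DEG threshold. The annotated 3′ end of Nfkb2 overlaps that of Psd on the opposite strand by 4 bases. Psd, looked at for this overlap after values were seen, had 82 to 299 counts and a log2 fold change of 1.46 (edgeR adjusted p = 1.1e-06), and the use of strand in counting is not given in the sources used here.

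The 3 subunits that carry an activation domain differed. Relb (ENSMUSG00000002983, chr7:19606217-19629438, minus strand), the usual partner of the processed Nfkb2 product, was the lowest of the subunits in control cells at 10.8, 9.35 and 10.5 CPM. In the LPS replicates it was at 30.5, 28.7 and 23.7 CPM, with replicate 3 the lowest of them but above each control library. The means were 10.2 ± 0.761 and 27.6 ± 3.53 CPM (SD, n = 3 each). The log2 fold change was 1.43 (SE 0.11, edgeR adjusted p = 1.01e-07), and without LPS replicate 3 it was 1.53, which passed the DEG threshold.

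Rel (ENSMUSG00000020275, chr11:23736847-23770970, minus strand) encodes c-Rel, a subunit best known from lymphoid and myeloid cells. Rel was at 35.8, 40.2 and 36.9 CPM in the control replicates and at 64.5, 66.4 and 68.4 CPM in the LPS replicates. The groups were well apart, with means of 37.6 ± 2.27 and 66.4 ± 1.99 CPM (SD, n = 3 each), and the log2 fold change was 0.82 (SE 0.06, edgeR adjusted p = 5.81e-08).

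Rela (ENSMUSG00000024927, chr19:5637483-5648130, plus strand) encodes the main activating subunit of the canonical pathway and changed the least of the 10 genes. Its level was 73.1, 75.4 and 77.6 CPM in the control replicates and 87.2, 88.5 and 86.0 CPM in the LPS replicates. The groups did not overlap, but the difference was small, from 75.4 ± 2.27 to 87.2 ± 1.23 CPM (SD, n = 3 each). The log2 fold change was 0.21 (SE 0.05, edgeR adjusted p = 0.00271). It rested on the scaling of the libraries, since with library totals in place of TMM normalization it was 0.11 with an edgeR adjusted p of 0.071. That scaling moved the median of all tested genes from 0.0036 to -0.0947, and the other 9 genes kept their calls under it.

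Among the cytoplasmic inhibitors, Nfkbia had the largest change. Nfkbia (ENSMUSG00000021025, chr12:55489410-55492647, minus strand) encodes IκBα, the inhibitor that is degraded and resynthesized within a cycle of NF-κB activation. It was at 85.5, 79.5 and 91.9 CPM in the control replicates and at 271, 280 and 266 CPM in the LPS replicates, the highest CPM of the 10 genes in each LPS library. The means of 85.7 ± 6.2 and 272 ± 6.84 CPM (SD, n = 3 each) gave a log2 fold change of 1.67 (SE 0.05, edgeR adjusted p = 4.02e-12), a 3.18-fold rise. Nfkbia passed the DEG threshold in all 16 alternative fits, with log2 fold changes from 1.57 to 1.72.

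Nfkbib and Nfkbie rose less. Nfkbib (ENSMUSG00000030595, chr7:28758251-28767512, minus strand) encodes IκBβ, an inhibitor that is known for slower turnover than IκBα. Its level was 55.8, 52.1 and 58.5 CPM in the control replicates and 105, 91.4 and 89.1 CPM in the LPS replicates. LPS replicate 1 was the highest, and all 3 LPS libraries were above the control libraries. The means were 55.4 ± 3.2 and 95.3 ± 8.79 CPM (SD, n = 3 each), which is 1.72-fold. The log2 fold change was 0.78 (SE 0.07, edgeR adjusted p = 3.09e-07). Nfkbib overlaps Sirt2 on the opposite strand by 778 bases, and Sirt2 had a log2 fold change of 0.06 (edgeR adjusted p = 0.402).

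Nfkbie (ENSMUSG00000023947, chr17:45555703-45563169, plus strand) encodes IκBε and had few counts. Untreated replicates 1, 2 and 3 had 89, 107 and 112 counts and the LPS replicates had 203, 227 and 183, or 5.2, 6.07 and 6.03 CPM against 12.9, 13.8 and 11.1 CPM. The groups were apart in both units, and the means were 5.76 ± 0.491 and 12.6 ± 1.37 CPM (SD, n = 3 each). The log2 fold change was 1.13, with the largest SE of the 10 genes, 0.13 (edgeR adjusted p = 8.91e-06).

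The atypical inhibitor Nfkbiz (ENSMUSG00000035356, chr16:55811375-55838899, minus strand) had by far the largest change. It encodes IκBζ, a nuclear protein needed for a secondary set of LPS-induced genes such as Il6. Control replicates 1, 2 and 3 held 71, 113 and 115 counts and LPS replicates 1, 2 and 3 held 1071, 1212 and 1005, which are 4.14, 6.41 and 6.19 CPM against 67.9, 73.9 and 61.2 CPM. Control replicate 1 was the lowest of its group, and the lowest LPS library was several times higher than the highest control library. The log2 fold change was 3.59 (SE 0.12, 95% interval 3.33 to 3.85, edgeR adjusted p = 5.57e-12), or 12.1-fold with an interval of 10.1 to 14.5. Against control replicate 1 alone, which held the fewest Nfkbiz counts, it was 4.03, and over the single libraries left out it lay between 3.41 and 3.69.

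Bcl3 (ENSMUSG00000053175, chr7:19808462-19822770, minus strand), whose product binds dimers of the processed Nfkb1 and Nfkb2 subunits, changed much less. It was at 15.9, 18.3 and 14.7 CPM in the control replicates and at 36.8, 31.2 and 29.9 CPM in the LPS replicates. The groups were apart, and the spread within the LPS group came mostly from replicate 1. The means were 16.3 ± 1.79 and 32.6 ± 3.68 CPM (SD, n = 3 each). The log2 fold change was 1.00 (SE 0.1, edgeR adjusted p = 2.24e-06). Antisense transcripts annotated over Bcl3 held at most 5 counts in a library. Bcl3 and Relb lie 179 kb apart on chromosome 7, and of the 4 tested genes annotated between them none was higher and 1 was lower, with log2 fold changes from -0.68 to 0.05.

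**Figure D2:**
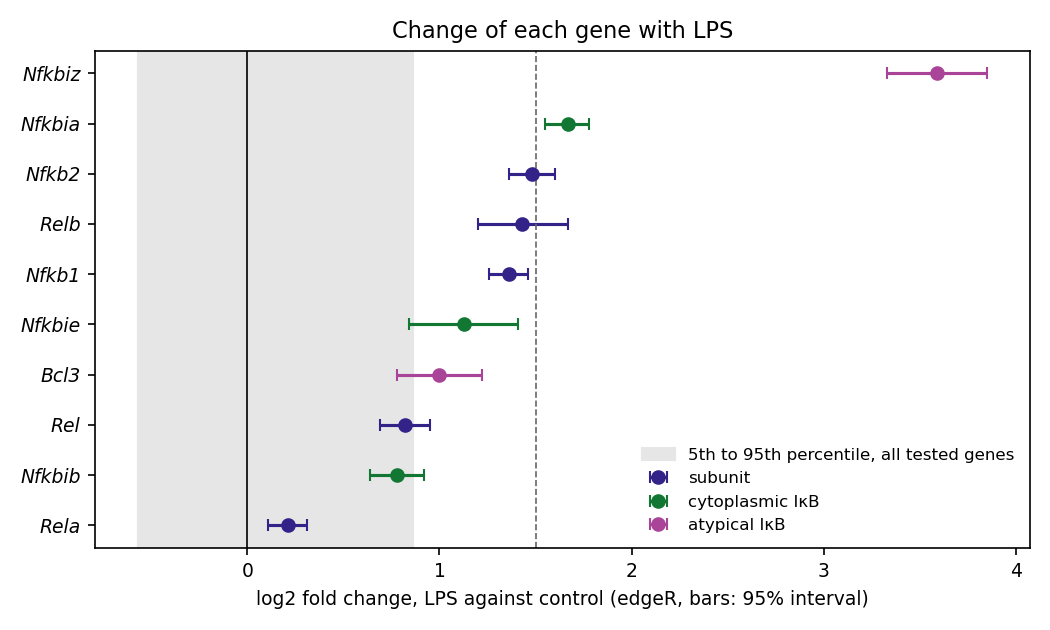
Log2 fold change of each gene, LPS against control, with its 95% interval from edgeR, coloured by class, with a dashed line at 1.5 and a grey band from the 5th to the 95th percentile of all tested genes (-0.57 to 0.86). Nfkbiz at 3.59 stands clear of the rest, Rela at 0.21, Nfkbib at 0.78 and Rel at 0.82 lie inside the band, and the other 6 genes lie between 1.00 and 1.67.

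Ordered by log2 fold change, the genes ran from Nfkbiz through Nfkbia, Nfkb2, Relb, Nfkb1, Nfkbie, Bcl3, Rel and Nfkbib to Rela. Of the neighbours in this order, the 95% intervals were apart only between Nfkbiz and Nfkbia and between Nfkbib and Rela. Genes further from each other in the order were apart in part: the interval of Nfkbia (1.55 to 1.78) lay above those of Nfkb1 and of every gene below it, and the intervals of Nfkb2 and Nfkb1 lay above those of Bcl3, Rel and Nfkbib as well as Rela. The median log2 fold change was 1.36 for the 5 subunits, 1.13 for the 3 cytoplasmic inhibitors and 2.3 for the 2 atypical inhibitors.

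Levels of different genes were compared as CPM per kilobase of the deposited gene length. In control cells Nfkbia had the highest level per kilobase, 53.2 ± 3.85, followed by Rela at 27.8 ± 0.836 and Nfkbib at 25.6 ± 1.48 (SD, n = 3 each). Rela and Nfkbib overlapped between libraries, as did Nfkb1 and Bcl3 further down the order. Relb at 2.63 ± 0.196, Nfkbie at 1.89 ± 0.161 and Nfkbiz at 1.11 ± 0.249 CPM per kilobase were the lowest. With LPS, Nfkbia reached 169 ± 4.25 and Nfkbib 43.9 ± 4.05, and Nfkb2 at 33.3 ± 0.846 lay beside Rela at 32.1 ± 0.451 CPM per kilobase. Nfkbiz moved from the last place to the sixth at 13.5 ± 1.27 and overlapped Bcl3 at 13.2 ± 1.49 CPM per kilobase. The order depends on the length used. The deposited length counts all exons of a gene, 12061 bases for Nfkb1 against 4117 in its principal transcript, and with principal transcript lengths only 2 of the 10 genes kept their place in the LPS order and 8 in the control order. Nfkb1 then stood at 54.6 CPM per kilobase with LPS, second after Nfkbia at 173.

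The make-up of the subunit transcripts shifted away from Rela. Rela was 50.8% ± 0.929 of the summed subunit level per kilobase in control and 32.1% ± 0.252 in LPS libraries, while Nfkb2 went from 21.9% ± 1.21 to 33.3% ± 0.529 and Nfkb1 from 13.3% ± 0.3 to 18.6% ± 0.2 (SD, n = 3 each). The libraries of the groups did not overlap for these 3 genes, nor for Relb at 4.81% ± 0.336 and 7.1% ± 0.822. The share of Rel was 9.23% ± 0.641 and 8.89% ± 0.405, and the groups overlapped. The ratio of Nfkb2 to Relb, which form the non-canonical dimer, was 4.55 ± 0.0666 in control and 4.74 ± 0.626 in LPS libraries, again with overlap. With principal transcript lengths Rela still went from the first share among subunits to a lower one, 38.9% ± 0.777 to 22.5% ± 0.304, but Nfkb1 at 38.2% ± 0.237 and not Nfkb2 at 24.4% ± 0.471 was then the largest share with LPS.

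The summed level of the inhibitors was higher relative to that of the subunits in LPS than in control libraries, and most of this sum was Nfkbia. By single genes the order was the other way, with a median log2 fold change of 1.13 for the 5 inhibitors and 1.36 for the 5 subunits. The summed level of the 5 inhibitors was 88.4 ± 4.58 CPM per kilobase in control and 244 ± 8.72 in LPS libraries, and that of the 5 subunits was 54.6 ± 1.01 in control (SD, n = 3 each) and 99.9, 102 and 98.0 in LPS replicates 1, 2 and 3. The ratio of inhibitors to subunits was 1.62, 1.56 and 1.67 in the control replicates and 2.5, 2.43 and 2.39 in the LPS replicates, so that every LPS library lay above every control library. With principal transcript lengths the ratio went from 1.32 ± 0.044 to 1.8 ± 0.0379. Without Nfkbia in the sum, a calculation chosen after seeing the data, the ratio was 0.641, 0.643 and 0.647 in the control and 0.815, 0.728 and 0.701 in the LPS replicates, and with principal transcript lengths 0.554 ± 0.00419 and 0.598 ± 0.0437 (SD, n = 3 each). Nfkbia made up 60.2% ± 1.23 of the inhibitor sum in control and 69.4% ± 1.66 in LPS libraries, and Nfkbib went from 28.9% ± 0.351 of it in control to at most 19.4% in each LPS library although its own level rose. The level of Nfkbia relative to Rela went from 1.92 ± 0.119 to 5.27 ± 0.0569, and that of Nfkbiz relative to Bcl3 from 0.169 ± 0.0396 to 1.03 ± 0.132. The inhibitor sum held Nfkbiz and Bcl3, whose nuclear products can act as co-regulators. The subunit sum held Nfkb2, whose unprocessed form also acts as an inhibitor. The ratio of these sums therefore does not give a balance of inhibition and activation. All ratios here are descriptions of RNA and were not tested.

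**Figure D3:**
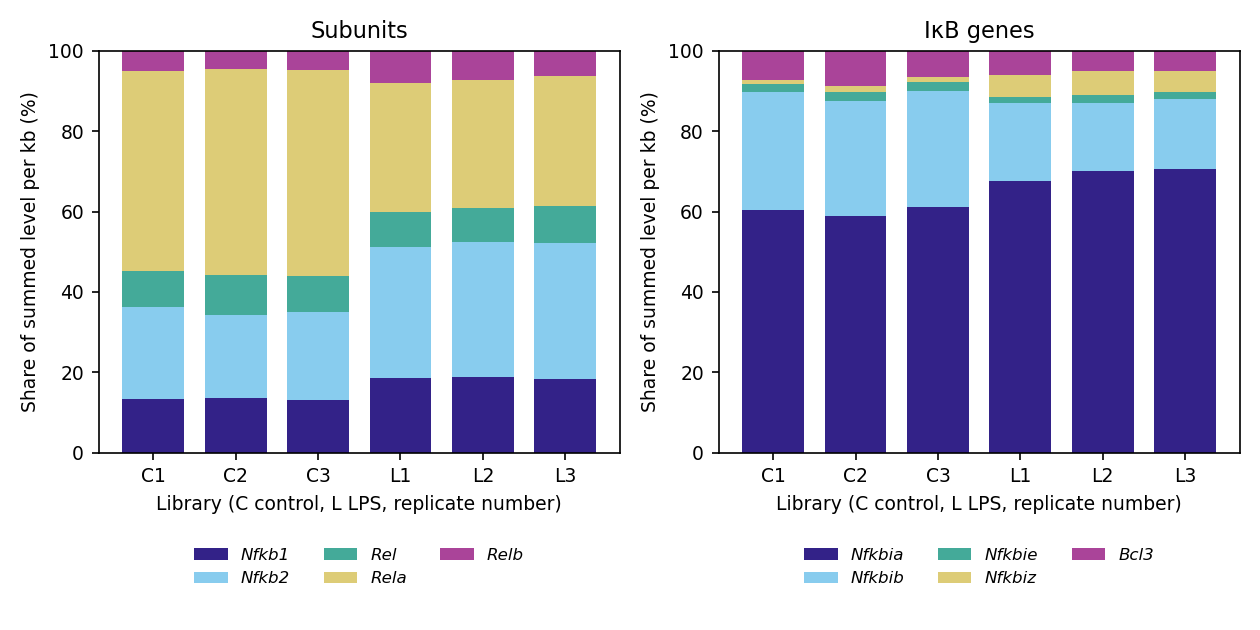
Share of each gene in the summed level per kilobase of its class, in percent, with a bar for each of the 6 libraries (C control, L LPS), for subunits on the left and IκB genes on the right. The Rela segment shrinks from 50.8% of the subunit bar to 32.1% with LPS, and the Nfkbia segment grows from 60.2% to 69.4% of the inhibitor bar.

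Promoter sequence was read where RefSeq gave it, for 7 of the 10 genes, as 250 bases before to 50 bases after an annotated start on GRCm38.p6. There was no entry for Nfkb1, Relb and Nfkbiz in the table used. The windows were searched on both strands for the 10-base κB consensus of the NF-κB family and for its looser form GGGNNNNNCC. The consensus was found in 5 of the 7 genes (Nfkb2, Rel, Nfkbia, Nfkbie and Bcl3) and in 4.51% of all 32851 promoters, or 5.14% of the 27025 genes with a promoter. The looser form was found in 6 of the 7 genes and in 53.5% of all genes with a promoter, or 50.8% of all promoters. A match is a description of sequence, and binding was not measured.

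The 120 bases before the start of 4 genes with a match and of Rela and Nfkbib, which had no match to the consensus, are printed 5′ to 3′ along the gene, with bases of κB matches in capitals. They are shown so that the κB words of these genes can be read beside the promoters without one. The window of Rela held 3 matches to the looser form and that of Nfkbib held 0.
Nfkbia, chr12:55492648-55492767, minus strand: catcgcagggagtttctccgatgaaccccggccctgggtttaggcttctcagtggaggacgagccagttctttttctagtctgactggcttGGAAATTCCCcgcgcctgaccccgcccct
Nfkb2, first start, chr19:46304617-46304736, plus strand: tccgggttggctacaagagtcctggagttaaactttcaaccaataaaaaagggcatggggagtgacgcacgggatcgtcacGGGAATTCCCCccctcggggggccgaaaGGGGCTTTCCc
Rel, chr11:23770970-23771089, minus strand: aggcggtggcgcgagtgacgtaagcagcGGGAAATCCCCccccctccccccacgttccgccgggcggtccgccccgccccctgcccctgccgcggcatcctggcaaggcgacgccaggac
Nfkbie, chr17:45555580-45555699, plus strand: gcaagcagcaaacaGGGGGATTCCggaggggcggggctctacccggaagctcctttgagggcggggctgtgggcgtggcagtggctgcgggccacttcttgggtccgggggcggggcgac
Rela, chr19:5637421-5637540, plus strand: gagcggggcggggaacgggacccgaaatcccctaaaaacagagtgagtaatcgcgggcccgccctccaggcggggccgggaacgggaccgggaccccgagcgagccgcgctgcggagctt
Nfkbib, chr7:28766645-28766764, minus strand: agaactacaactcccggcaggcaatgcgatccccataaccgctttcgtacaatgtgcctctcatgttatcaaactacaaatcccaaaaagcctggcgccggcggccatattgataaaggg
For Bcl3 the match lies just after the start, and 30 bases around it are shown.
Bcl3, chr7:19822734-19822763, minus strand: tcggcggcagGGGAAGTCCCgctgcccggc

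Positions are counted from the start site, with negative numbers before it. The match of Nfkbia lay at -29 to -20 and that of Bcl3 at 3 to 12. Nfkb2 had overlapping matches at -39 to -30 and -38 to -29, the first of them on both strands, and a further match at -11 to -2. Rel had overlapping matches at -92 to -83 and -91 to -82, and Nfkbie a match at -106 to -97. The 5 genes with a consensus match had log2 fold changes from 0.82 to 1.67, and Rela and Nfkbib, without one in this window, had 0.21 and 0.78. The window of Nfkbib was set on a start at 28766644 and lay inside the counted gene, which begins at 28767512 on the minus strand. Sequence before that beginning was not searched. The 95% intervals of Rel (0.69 to 0.95), with a match, and Nfkbib (0.64 to 0.92), without, overlapped. A relation between matches and changes was not tested. The 3 annotated starts of Nfkb2 are 46304737, 46305695 and 46305930 on chromosome 19, and each of their windows held at least 1 match, 1 of which is shared by the last 2 windows.

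**Figure D4:**
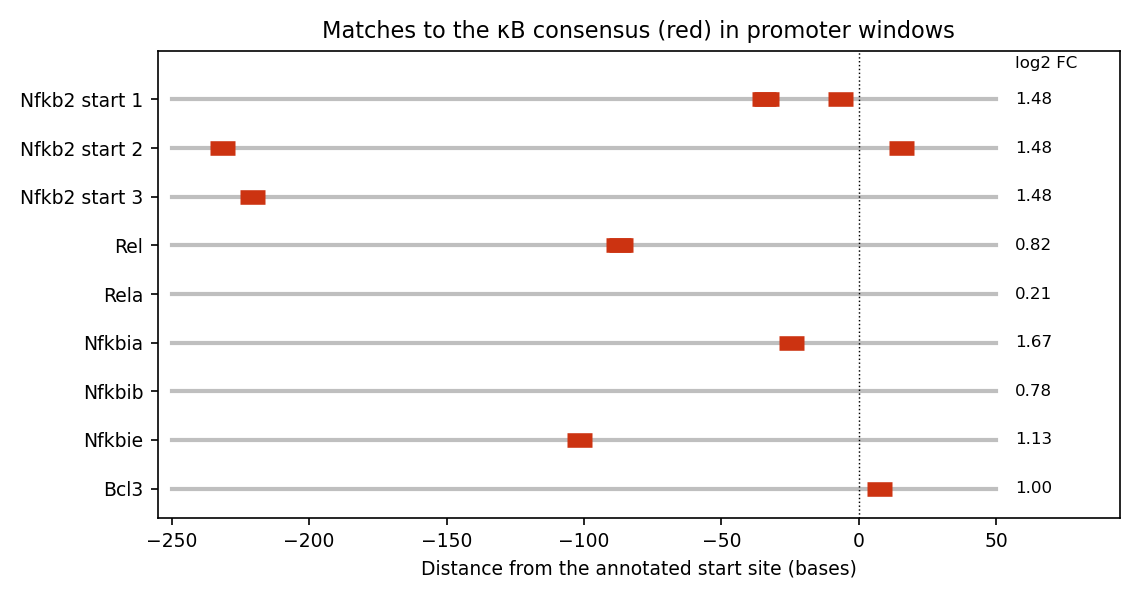
Promoter windows of the 7 genes with an entry, drawn by distance in bases from the annotated start (dotted line), with κB consensus matches as red blocks and the log2 fold change of each gene at the right. Blocks lie within 120 bases before the first start of Nfkb2, Rel, Nfkbia and Nfkbie and just after the start of Bcl3, and none lies in the windows of Rela and Nfkbib.

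Of 14 genes of the IKK complex and its kinases, all tested, 5 were higher, 1 was lower and 8 did not pass the test, and their median log2 fold change was -0.01. The share called was 42.9%, against 34.3% of all tested genes. Map3k8 encodes Tpl2, a kinase held by the unprocessed Nfkb1 product, and went from 64, 59 and 78 to 235, 218 and 200 counts (log2 fold change 1.84, SE 0.14, edgeR adjusted p = 9.87e-08). Ikbke, an IKK-related kinase of the interferon response, went from 23.4 ± 0.603 to 82.2 ± 3.85 CPM (SD, n = 3 each), a log2 fold change of 1.81 (SE 0.06, edgeR adjusted p = 5.39e-12). These were the 2 DEG of the list.

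The core IKK subunits moved little. The catalytic subunit gene Ikbkb had a log2 fold change of 0.38 (SE 0.05, edgeR adjusted p = 9.34e-06). The other catalytic subunit gene, Chuk, had 0.02 with a 95% interval of -0.11 to 0.16 and did not pass the test (edgeR adjusted p = 0.82). The scaffold gene Ikbkg had 0.25 (SE 0.06, edgeR adjusted p = 0.00722), and its adjusted p was 0.18 without control replicates 2 and 3 and 0.0758 with library totals. Map3k14, which encodes the NF-κB-inducing kinase of the non-canonical pathway, was the gene of the list called lower, from 536, 588 and 668 to 418, 421 and 422 counts (log2 fold change -0.37, SE 0.08, edgeR adjusted p = 0.00148). With control replicate 1 as the only control library, in the fit with fewer calls over all genes, Map3k14 had -0.27 (edgeR adjusted p = 0.098).

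Of 17 genes of the ubiquitin and degradation machinery that links receptors to IKK and removes IκB, 5 were higher, none was lower and 12 did not pass the test, and the median log2 fold change was 0.11. The share called was 29.4%, against 34.3% of all tested genes. Traf1, an adaptor of the TNF receptor family, went from 44, 29 and 44 to 509, 547 and 550 counts, a log2 fold change of 3.91 (SE 0.13, edgeR adjusted p = 5.2e-12). Its 95% interval, 3.63 to 4.19, overlaps that of Nfkbiz. Birc3, a ubiquitin ligase of the same receptor complexes, had 0.82 (SE 0.08, edgeR adjusted p = 1.24e-06).

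Of 14 genes of other brakes on NF-κB signalling, 6 were higher, 1 was lower and 7 did not pass the test, and the median log2 fold change was 0.17. That is 7 of 14 called, against 34.3% of all tested genes. Zc3h12a encodes Regnase-1, an RNase that degrades inflammatory mRNAs, and went from 107, 117 and 142 to 1316, 1291 and 1334 counts (log2 fold change 3.56, SE 0.08, edgeR adjusted p = 5.85e-14). Tnfaip3, which encodes the deubiquitinase A20, had 2.34 (SE 0.06, edgeR adjusted p = 5.74e-13). Nfkbid, a further nuclear IκB gene that is not among the 10, had 2.12, from 17.6 ± 1.68 to 76.7 ± 1.81 CPM (SD, n = 3 each, edgeR adjusted p = 5.57e-12). Nkiras2, which encodes a small Ras-like protein that binds IκB, was lower at -0.24 (SE 0.05, edgeR adjusted p = 0.00213).

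Of 28 textbook target genes of NF-κB, 22 passed the filter on low counts, and of these 19 were higher, 1 was lower and 2 (Bcl2l1 and Mmp9) did not pass the test, and the median log2 fold change was 1.55 with 12 up-regulated DEG. The share called was 90.9%, against 34.3% of all tested genes, of which 18.7% were higher and 2.4% up-regulated DEG. This list, like the other lists and the 10 genes, was chosen with earlier results of these data known. A gene absent from control cells can also pass the filter through the LPS libraries, so this count is a description. Nos2, the inducible nitric oxide synthase, had 0, 2 and 2 counts without LPS and 285, 385 and 312 with LPS, at least 120-fold higher against a floor of 3 counts per library. Cxcl10, a chemokine that attracts T cells, went from 32, 28 and 24 to 3493, 3555 and 3072 counts (log2 fold change 7.04, SE 0.11, edgeR adjusted p = 1.12e-15). Of the untested genes, Il6 held 0 counts in each control library and 10, 14 and 9 in the LPS libraries, at least 4.03-fold higher against the same floor. The other 5 untested genes were at or near 0 in both groups, with Il12b and Csf2 at 0 in every library and Cxcl1, Vcam1 and Sele at 0 or 1 count in each. Ccnd1, a cyclin gene, was lower at -0.16 (SE 0.05, edgeR adjusted p = 0.0138), and its adjusted p was 0.058 without control replicate 3 and 0.0748 without LPS replicate 3.

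**Figure D5:**
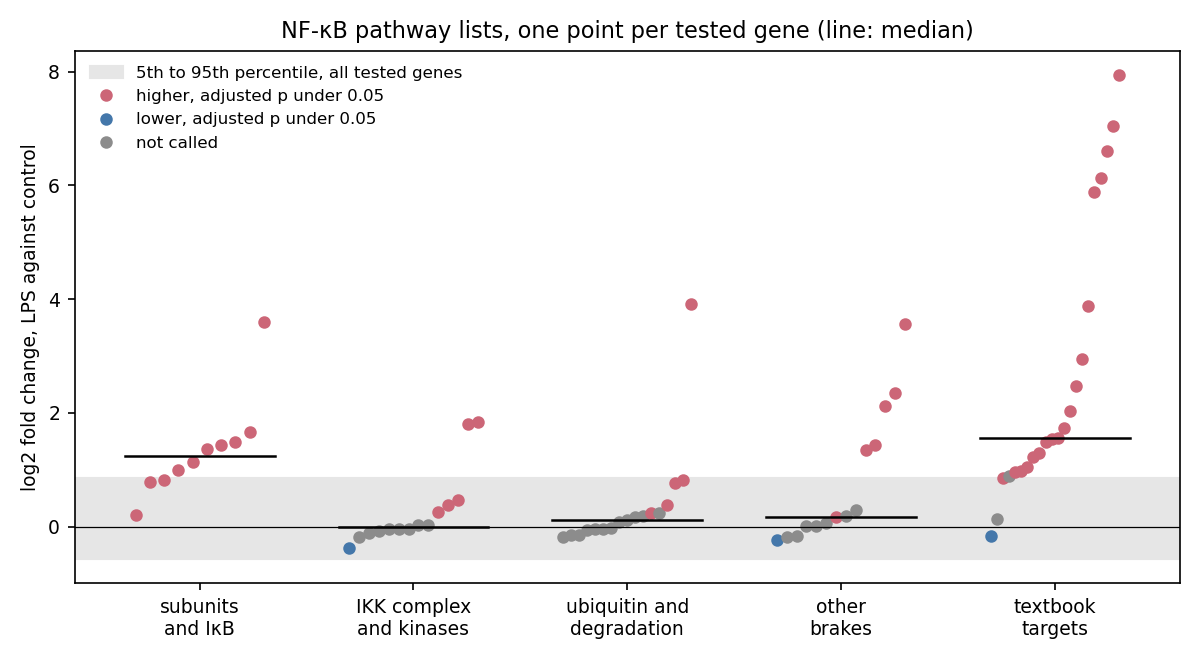
Log2 fold change of each tested gene of the 10 subunit and inhibitor genes and of the 4 other lists, ordered within each list, coloured by call, with a line at the median and the 5th to 95th percentile of all tested genes in grey. All 10 points of the first column are called higher, the median lines are at 1.24 for these and at -0.01, 0.11, 0.17 and 1.55 for the kinases, the ubiquitin machinery, the other brakes and the targets.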

How the data were processed

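RNA-seq was performed on total RNA of 6 samples, with libraries and sequencing by Novogene. Per the labels, reads were counted with featureCounts 1.5.0-p3 on mm10, and the aligner, annotation and strand setting are not given in the sources used here. The authors deposited whole-number read counts per gene for 54532 genes without normalization, and no row lacked a gene name. Their table of their own comparison, with fold changes, p-values and normalized values per sample (18 columns), was not used.

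Samples were grouped by their labels. The counts were tested with edgeR 4.0.16 in R 4.3.3 (filterByExpr, TMM factors from 0.9646 to 1.036, quasi-likelihood test without covariates, prior count 0.125, Benjamini-Hochberg adjustment over the 12296 genes tested). The SE is the size of the log2 fold change divided by the square root of F. CPM uses TMM-normalized library sizes. DEG were called at 0.05 for the adjusted p together with 1.5 for the size of the log2 fold change. Genes whose control libraries were all at or under 3 counts are given as bounds against 3 counts per library, which cover counting error only because reads without molecular identifiers need not be separate molecules. The 10 genes held 71 to 4587 counts per library. Coordinates of 9 of them equal GENCODE M21, Nfkb2 being the exception.

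The 10 genes and all lists were chosen with earlier results of these data known. Named genes are the 10, the 2 called genes with the largest rise and the 2 with the largest fall of each other list, Chuk, Ikbkb, Ikbkg, Map3k14, Nfkbid and Tnfaip3. Of each marker list, genes at or near 0 are named. Promoters came from RefSeq (GRCm38.p6), and 7 of the 10 genes matched by symbol. Alternatives were DESeq2 1.42.0, RLE size factors, no filter, a mean of at least 10 counts, a replicate block, robust dispersion, a prior count of 2, protein-coding genes alone, glmTreat, no division by length and each library left out. Library totals without TMM, principal transcript lengths, inhibitor sums without Nfkbia and control replicates 2 and 3 left out together were added after seeing the data. The fits were tested on simulated data. Figures used matplotlib 3.10.9.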

Additional observations from a re-analysis of the deposited data

How the results depend on the processing

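Over 16 alternative fits of the 10 genes, 159 of 160 kept their direction and an adjusted p under 0.05, and none reversed. The exception was Rela with library totals in place of TMM, at a log2 fold change of 0.11 (edgeR adjusted p = 0.071), and over single libraries left out its highest adjusted p was 0.0172. Among the 16 fits, the prior count of 2 changes the log2 fold changes only. Its adjusted p-values equal those of the main fit, so its calls of the 10 genes could not differ. The count of genes with an adjusted p under 0.05 was 4221, 3597 with DESeq2, 4862 with library totals, and 3379 to 4081 with single libraries left out. DEG numbered 326, and 353 to 377 with single libraries left out. Without the filter they numbered 469, and by glmTreat, which tests against the threshold itself, 183, with Nfkbia and Nfkbiz among the calls. With single libraries left out, the 10 genes called numbered 10 throughout and their DEG 2 to 3, the third being Relb without LPS replicate 3. With single libraries left out, the numbers called in the kinase, ubiquitin, brakes and target lists were 6, 5 to 6, 6 to 7 and 20 to 21, and in the ubiquitin list 7 were called with robust dispersion, with the replicate block and with protein-coding genes alone. In the order of levels, 3 genes kept their place in control and 5 in LPS libraries when counts were not divided by length, and with principal transcript lengths 8 did in control and 2 in LPS libraries. Otulin was called among the brakes (edgeR adjusted p = 0.0259) but not with DESeq2 (adjusted p = 0.0773). Depth limits Nfkbie and Nfkbiz most, whose control libraries held from 71 to 115 counts.

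The replicate numbers of the labels were tested as a replicate block. Deviations of same-numbered libraries from their group means correlated at 0.144, 0.055 and 0.032 across 10458 genes, against -0.093 to 0.044 for the other pairs. Control replicates 1 and 2 correlated best with their own number, control replicate 3 with LPS replicate 2 (0.042), and not every same-numbered pair was over 0.1, so the numbers were not taken as pairs. With the block, 4474 genes had an adjusted p under 0.05 and 329 were DEG, with 10 of the 10 genes called and 2 of them DEG.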
